A study of Mus musculus with 10 samples.

Results

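Eicosanoid synthesis enzymes of the leukotriene and prostaglandin branches were followed across MAF9 cells treated with 4 inhibitors or with DMSO. The 10 genes, picked by name from the 24015 genes of the count table, were Alox5, Alox5ap, Alox15, Ltc4s, Lta4h, Ptgs1, Ptgs2, Hpgds, Tbxas1 and Pla2g7. All 10 were found in the table. MAF9 cells are C57BL/6 mouse bone marrow cells made leukemic by transduction with the MLL-AF9 fusion gene, and every group carried that fusion, the mock-treated group included. The culture medium was IMDM with serum (15%) and interleukin 3 (10 ng/ml), and cells were treated for 4 days at a growth-inhibitory dose.

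The treatments were MM-401 (MM401 in the sample labels), which blocks the binding of MLL1 to WDR5, EPZ5676 (EPZ), an inhibitor of the H3K79 methyltransferase DOT1L, MI-2-2 (MI), which blocks the binding of menin to MLL proteins, iBET, an inhibitor of BET bromodomain proteins, and DMSO as mock treatment. RNA was sequenced from 2 libraries of each treatment, 10 in all. The methods of the study call the duplicates biological samples without naming separate cultures or animals, and p-values measure the spread between these libraries. The values are counts of reads per gene, with 20394762 to 29473127 reads per library, so that 1 read was worth 0.0339 to 0.049 CPM, which are counts expressed as parts per 1e6 of the library. Levels below are CPM scaled by TMM normalization, given for replicate 1 and then replicate 2.

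DMSO replicate 2 stood apart from the other 9 libraries. It held 3630 reads of 4 Y-linked genes, where the other libraries held 0 to 2, and 4.76 CPM of Xist, the RNA of the inactive X chromosome, where they held 928 to 3051. By these genes, the DMSO libraries did not hold the same cells. The spread between them includes this difference, and its part in the comparisons was not tested. Among genes averaging 1 CPM or more, 17.1% lay over 2-fold apart in the DMSO libraries. Within the inhibitor groups it was 1.65% to 4.53%. Comparisons of members with DMSO are therefore given with and without DMSO replicate 2, and the 4 inhibitors were also compared with each other in a fit of their 8 libraries alone. All 4 comparisons with DMSO use the same DMSO libraries and are not independent of each other.

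Eicosanoids are oxygenated products of arachidonic acid that act as local signals. In the leukotriene branch, 5-lipoxygenase and its membrane partner FLAP turn arachidonic acid into leukotriene A4, which becomes either leukotriene B4, an attractant of neutrophils, or leukotriene C4, the parent of the cysteinyl leukotrienes. In the prostaglandin branch, cyclooxygenases make prostaglandin H2, from which terminal synthases make prostaglandin D2, thromboxane A2 and other prostanoids. Neutrophils and macrophages are known for leukotriene B4, mast cells and basophils for leukotriene C4 and prostaglandin D2, and platelets for thromboxane A2.

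Reads of the genes of the first leukotriene step and of several terminal synthases were more abundant after EPZ5676 or MI-2-2 than after DMSO. With all 10 libraries, 6 of the 9 members that could be tested were higher with EPZ5676, and the same 6 with MI-2-2: Alox5, Alox5ap, Ltc4s, Ptgs1, Hpgds and Tbxas1. Of all 12971 genes tested, 38.1% passed the same test with EPZ5676 and 41.4% with MI-2-2, and 18.7% and 20.2% passed it as higher. With iBET, Ptgs1 was higher and Tbxas1 lower, 2 of 9 members against 13.9% of all genes. With MM-401 no member passed edgeR's test, which called 0 genes (0%) in this comparison, although 1450 genes had an unadjusted p under 0.05 and DESeq2 called 2 members, Alox5ap and Ptgs1. Without DMSO replicate 2, the counts were 5 members with EPZ5676 (35.5% of 13242 genes), 5 with MI-2-2 (37.6%), 2 with iBET (21.6%) and 0 with MM-401 (0%). The member no longer called was Hpgds for both EPZ5676 and MI-2-2.

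Pla2g7, which encodes the plasma platelet-activating factor acetylhydrolase, had 4 reads over the 10 libraries and was the only member left out by the filter on low counts. It had 1 read in DMSO, 2 with EPZ5676, 1 with MI-2-2 and 0 with MM-401 and iBET, where a count of 0 allows up to 0.0654 and 0.0635 CPM by counting error. Of the other members, Alox15 passed through 2 libraries alone, and each of the rest reached the filter in 8 or more libraries.

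**Figure D1:**
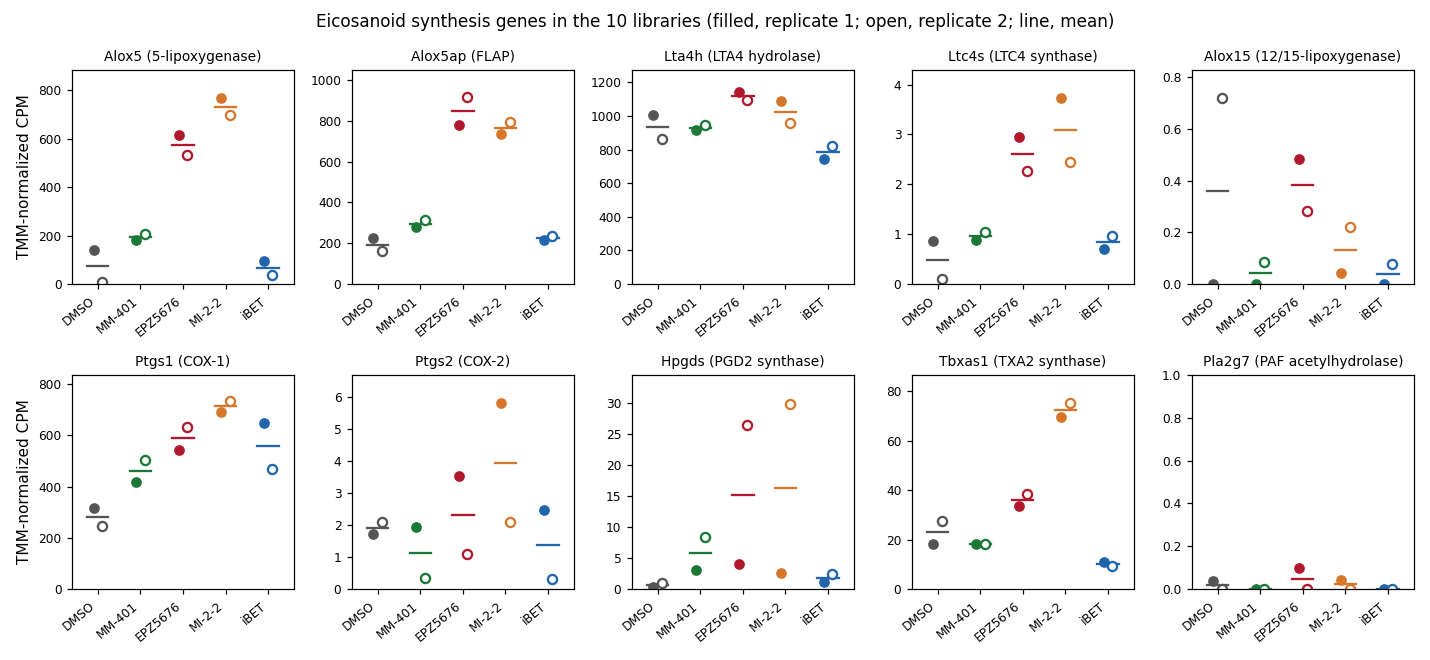
Levels of the 10 genes in every library, with TMM-normalized CPM on linear axes that start at 0 and differ between panels; filled points are replicate 1, open points replicate 2 and short lines the mean of a group. Alox5, Alox5ap and Ltc4s sit highest with EPZ5676 and MI-2-2, Tbxas1 is highest with MI-2-2 and lowest with iBET, and Hpgds is higher in replicate 2 than in replicate 1 of every group.

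Alox5 encodes 5-lipoxygenase, the enzyme that commits arachidonic acid to leukotrienes. Its levels were 141 and 9.44 CPM in DMSO, 183 and 208 with MM-401, 614 and 534 with EPZ5676, 768 and 698 with MI-2-2, and 95.9 and 37.8 with iBET. All 4 libraries of EPZ5676 and MI-2-2 lay above all 6 others, MM-401 came next, and iBET overlapped DMSO, whose libraries were far apart. The fold change against DMSO was 7.62 with EPZ5676 (log2 2.93, SE 0.99, adjusted p = 0.049) and 9.72 with MI-2-2 (log2 3.28, SE 1.01, adjusted p = 0.0324). The value moved with the DMSO library used: the log2 fold change with EPZ5676 was 2.05 without DMSO replicate 2 (adjusted p = 0.0163) and 5.93 without DMSO replicate 1 (adjusted p = 0.000293), and with MI-2-2 it was 2.41 and 6.28. The call with EPZ5676 was lost on leaving out any 1 of the 8 inhibitor libraries, with adjusted p between 0.0651 and 0.125, and that with MI-2-2 on leaving out any 1 of the MM-401, EPZ5676 or MI-2-2 libraries, with adjusted p between 0.0535 and 0.0864. With MM-401 the log2 fold change was 1.38 (adjusted p = 0.639), and it was 0.45 without DMSO replicate 2 and 4.38 without DMSO replicate 1 (adjusted p = 0.0046). With iBET it was -0.17 (adjusted p = 0.922), -1.08 without DMSO replicate 2 (adjusted p = 0.111) and, turned in sign, 2.83 without DMSO replicate 1 (adjusted p = 0.00797).

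Alox5ap encodes FLAP, the membrane protein that presents arachidonic acid to 5-lipoxygenase. It was present at 224 and 161 CPM in DMSO, 281 and 312 with MM-401, 782 and 918 with EPZ5676, 734 and 794 with MI-2-2, and 217 and 233 with iBET. The EPZ5676 and MI-2-2 libraries again lay above the 6 others, MM-401 lay above both DMSO libraries, and iBET overlapped DMSO. It rose 4.41-fold with EPZ5676 (log2 2.14, SE 0.18, adjusted p = 0.000462) and 3.96-fold with MI-2-2 (log2 1.99, SE 0.18, adjusted p = 0.00058). Both calls held without either DMSO library, and without DMSO replicate 2 the log2 fold changes were 1.94 and 1.80. With MM-401 the log2 fold change was 0.62 (adjusted p = 0.316), a value that DESeq2 called (adjusted p = 0.0391) and that edgeR called without DMSO replicate 1 (0.88, adjusted p = 0.0141) but not without DMSO replicate 2 (0.38, adjusted p = 0.18). With iBET it was 0.22 (adjusted p = 0.419), and 0.49 with DMSO replicate 2 as the only control. Without DMSO replicate 2 it was not called.

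Lta4h encodes leukotriene A4 hydrolase, which makes leukotriene B4. It was abundant in every library, at 1005 and 862 CPM in DMSO, 914 and 943 with MM-401, 1140 and 1094 with EPZ5676, 1086 and 957 with MI-2-2, and 746 and 822 with iBET. The EPZ5676 libraries lay just above both DMSO libraries and the iBET libraries just below them, MM-401 and MI-2-2 overlapped DMSO, and no comparison with DMSO passed the test. The log2 difference from DMSO was 0.26 with EPZ5676 (95% interval -0.07 to 0.59), 0.13 with MI-2-2 (-0.20 to 0.46), -0.01 with MM-401 (-0.34 to 0.32) and -0.25 with iBET (-0.58 to 0.08). When DMSO replicate 2 was left out these were 0.18, 0.059, -0.13 and -0.36, none of them called.

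Ltc4s encodes leukotriene C4 synthase and was sparse, with 373 reads in all. Its levels were 0.856 and 0.0959 CPM in DMSO, 0.887 and 1.05 with MM-401, 2.96 and 2.26 with EPZ5676, 3.73 and 2.45 with MI-2-2, and 0.707 and 0.956 with iBET. As for Alox5, the 4 libraries of EPZ5676 and MI-2-2 were the highest and DMSO replicate 2 the lowest. The fold change was 5.28 with EPZ5676 (log2 2.40, SE 0.73, adjusted p = 0.0338) and 6.24 with MI-2-2 (log2 2.64, SE 0.73, adjusted p = 0.0218). Without DMSO replicate 2 the log2 values were 1.63 (adjusted p = 0.0287) and 1.88 (adjusted p = 0.0163), and without DMSO replicate 1 they were 4.69 and 4.93. Leaving out any 1 inhibitor library ended the EPZ5676 call (adjusted p between 0.0534 and 0.119), and leaving out either MI-2-2 library ended the MI-2-2 call (0.0549 and 0.093). With MM-401 the log2 fold change was 0.98 (adjusted p = 0.67), 0.16 without DMSO replicate 2 (adjusted p = 0.85) and 3.27 without DMSO replicate 1 (adjusted p = 0.0261). With iBET it was 0.76 (adjusted p = 0.51), -0.039 without DMSO replicate 2 (adjusted p = 0.965) and 3.06 without DMSO replicate 1 (adjusted p = 0.0159).

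Alox15 encodes a lipoxygenase that oxygenates arachidonic acid at other carbons than 5-lipoxygenase does and is known from eosinophils and resident macrophages. It had 42 reads over the 10 libraries and at most 0.719 CPM, in DMSO replicate 2, with 0 reads in DMSO replicate 1, MM-401 replicate 1 and iBET replicate 1. No difference from DMSO was detectable at this depth, except that iBET passed when DMSO replicate 1 was left out (log2 -3.97, adjusted p = 0.0443). With DMSO replicate 2 left out, the control held 0 reads, so no fold is given, and no comparison passed (adjusted p between 0.0669 and 0.549).

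Ptgs1 encodes cyclooxygenase 1, the constitutive enzyme of prostaglandin H2 synthesis, and was the more abundant of the cyclooxygenase genes in every library. It was measured at 317 and 246 CPM in DMSO, 420 and 505 with MM-401, 542 and 634 with EPZ5676, 691 and 735 with MI-2-2, and 648 and 467 with iBET. Every inhibitor library lay above both DMSO libraries. It rose 2.09-fold with EPZ5676 (log2 1.06, SE 0.21, adjusted p = 0.00614), 2.53-fold with MI-2-2 (log2 1.34, SE 0.21, adjusted p = 0.00236) and 1.98-fold with iBET (log2 0.99, SE 0.21, adjusted p = 0.021). The 3 calls held without DMSO replicate 2 (log2 0.92, 1.21 and 0.82), and the iBET call was lost without either iBET library (0.74, adjusted p = 0.134, and 1.21, adjusted p = 0.054). With MM-401 the log2 fold change was 0.72 (adjusted p = 0.316). DESeq2 called it (adjusted p = 0.0473). With DMSO replicate 2 as the only control the edgeR value was 0.91, and without DMSO replicate 2 it was not called.

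Ptgs2 encodes cyclooxygenase 2, the inducible enzyme. Its levels were 1.71 and 2.11 CPM in DMSO, 1.94 and 0.336 with MM-401, 3.54 and 1.08 with EPZ5676, 5.81 and 2.08 with MI-2-2, and 2.47 and 0.306 with iBET. In all 4 inhibitor groups replicate 1 was above replicate 2, each group overlapped DMSO, and no comparison passed the test. The log2 differences from DMSO were -0.74 (MM-401), 0.27 (EPZ5676), 1.04 (MI-2-2) and -0.47 (iBET), and without DMSO replicate 2 they were -0.60, 0.46, 1.23 and -0.32. Per kilobase of exon the mean level in DMSO was 98.1 CPM for Ptgs1 and 0.429 CPM for Ptgs2.

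Hpgds encodes the hematopoietic prostaglandin D synthase. It was low in DMSO, at 0.389 and 0.911 CPM, and read 3.08 and 8.40 with MM-401, 4.03 and 26.3 with EPZ5676, 2.64 and 29.8 with MI-2-2, and 1.15 and 2.49 with iBET. All 8 inhibitor libraries lay above both DMSO libraries, and replicate 2 was above replicate 1 in all 5 groups. The log2 fold change was 4.56 with EPZ5676 (SE 1.39, adjusted p = 0.0344) and 4.66 with MI-2-2 (SE 1.39, adjusted p = 0.0296). Its size moved with 1 library of each: without EPZ5676 replicate 2 it was 2.64, and without MI-2-2 replicate 2 it was 2.04, neither of them called. Those fits set replicate 1 of the inhibitor against both DMSO libraries, of which replicate 2 was also the higher. Within replicate 1, the levels were 4.03 CPM with EPZ5676 and 2.64 CPM with MI-2-2 against 0.389 CPM in DMSO. Both calls were also lost without either DMSO library, with EPZ5676 at 4.05 (adjusted p = 0.106) and 5.28 (adjusted p = 0.0803), and with MI-2-2 at 4.16 (adjusted p = 0.0964) and 5.40 (adjusted p = 0.0734), and the EPZ5676 call without either iBET library (adjusted p = 0.0534 and 0.0535). With MM-401 it was 3.16 (adjusted p = 0.445), and with iBET 1.51 (adjusted p = 0.474), and without DMSO replicate 2 these were 3.85 (adjusted p = 0.282) and 2.22 (adjusted p = 0.452).

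Tbxas1 encodes thromboxane A synthase and was the member that moved in both directions. Its levels were 18.4 and 27.5 CPM in DMSO, 18.4 and 18.2 with MM-401, 33.6 and 38.7 with EPZ5676, 69.5 and 75.5 with MI-2-2, and 11.002 and 9.30 with iBET. The groups of EPZ5676, MI-2-2 and iBET overlapped neither DMSO nor each other. It rose 1.57-fold with EPZ5676 (log2 0.65, SE 0.20, adjusted p = 0.0355) and 3.16-fold with MI-2-2 (log2 1.66, SE 0.20, adjusted p = 0.00108), and was 2.26-fold lower with iBET (log2 -1.18, SE 0.21, adjusted p = 0.012). Without DMSO replicate 2 the log2 values were 0.99 (adjusted p = 0.00416), 2.01 (adjusted p = 0.000536) and -0.86 (adjusted p = 0.0116). The EPZ5676 call was lost without DMSO replicate 1 (0.40, adjusted p = 0.0728) and on leaving out any 1 inhibitor library (adjusted p between 0.0519 and 0.156), and the iBET call without either iBET library (adjusted p = 0.0659 and 0.103). With MM-401 the log2 fold change was -0.33 (adjusted p = 0.601), and -0.028 without DMSO replicate 2 (adjusted p = 0.928).

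**Figure D2:**
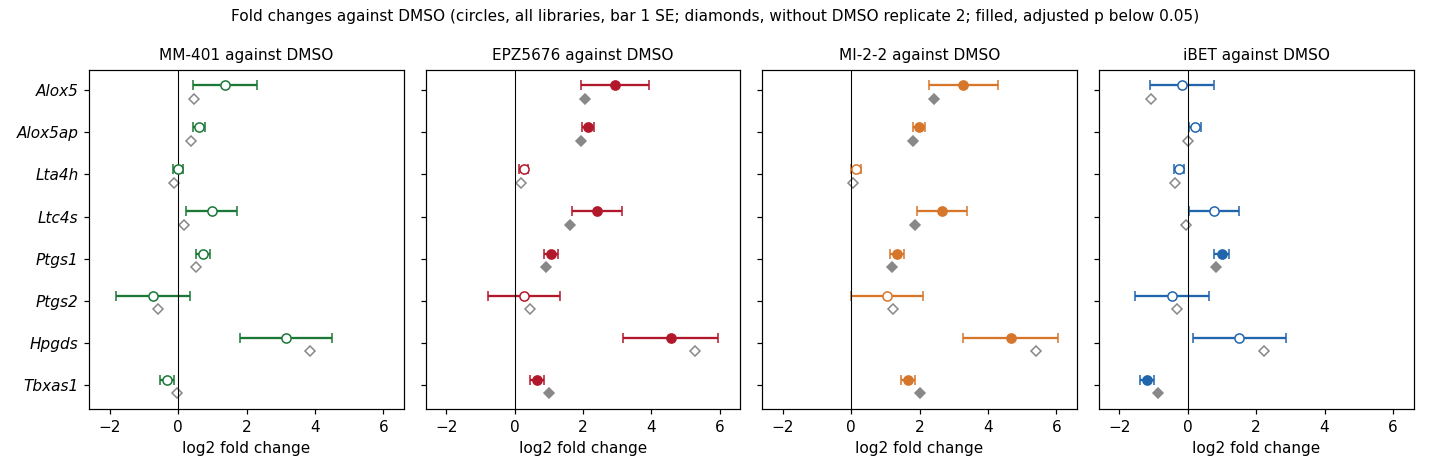
Log2 fold changes of 8 members against DMSO for each inhibitor; circles are the fit of all 10 libraries with a bar of 1 SE, diamonds the fit without DMSO replicate 2, and filled symbols passed an adjusted p of 0.05. Without DMSO replicate 2, Alox5 moves from 2.93 to 2.05 with EPZ5676, Tbxas1 moves from 0.65 to 0.99, and Hpgds is no longer called.

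The inhibitors were then compared directly, with no DMSO library as the control. In a fit of all 10 libraries, the DMSO libraries still entered the spread behind each test. In the fit of the 8 inhibitor libraries, Alox5, Alox5ap, Ltc4s and Tbxas1 were lower with MM-401 than with EPZ5676, and the same 4 with Ptgs1 were lower with MM-401 than with MI-2-2. These were 4 of the 8 members tested in this fit, where 48.8% of 12836 genes passed, and 5 of 8, where 51.3% passed. The log2 differences of MM-401 from EPZ5676 were -1.54 for Alox5 (adjusted p = 0.0107), -1.50 for Alox5ap (adjusted p = 0.000125), -1.41 for Ltc4s (adjusted p = 0.014) and -0.96 for Tbxas1 (adjusted p = 0.000776). With all 10 libraries, 2 members passed against EPZ5676 (33.3% of all genes), Alox5ap and Tbxas1, and 3 against MI-2-2 (35.7%), which were Alox5ap, Tbxas1 and Ptgs1 (log2 -0.62, adjusted p = 0.0462). Of these, the Ptgs1 call was lost on leaving out any 1 of the MM-401, EPZ5676 or MI-2-2 libraries (adjusted p between 0.0609 and 0.232), and Tbxas1 against EPZ5676 without MM-401 replicate 1 (0.0638), MM-401 replicate 2 (0.0678) or EPZ5676 replicate 2 (0.0547).

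iBET was lower than EPZ5676 and MI-2-2 for the leukotriene genes. In the 8 libraries, 5 of 8 members were lower with iBET than with EPZ5676 (51.3% of genes passed) and 5 of 8 lower than with MI-2-2 (52.1%), in both cases Alox5, Alox5ap, Ltc4s, Lta4h and Tbxas1. Against MI-2-2 the log2 differences were -3.48 for Alox5 (adjusted p = 0.000373), -1.79 for Alox5ap (adjusted p = 3.87e-05), -1.91 for Ltc4s (adjusted p = 0.00354), -0.41 for Lta4h (adjusted p = 0.0247) and -2.86 for Tbxas1 (adjusted p = 8.57e-06). With all 10 libraries, 4 members passed against EPZ5676 (37.6% of all genes), among them Lta4h (log2 -0.51, adjusted p = 0.0247), and 3 against MI-2-2 (38.8%). In that fit the Alox5 call against EPZ5676 was lost on leaving out any 1 of the 8 inhibitor libraries (adjusted p between 0.0648 and 0.215), that against MI-2-2 without any 1 MM-401, MI-2-2 or iBET library (0.0519 to 0.175), and the Lta4h call without any 1 MM-401, EPZ5676 or iBET library (0.0524 to 0.145). With the replicate block, 5 of 9 members passed against MI-2-2, where 48.4% of all genes did, Ltc4s (log2 -1.82, adjusted p = 0.0442) and Hpgds (log2 -2.62, adjusted p = 0.0102) being added. Against EPZ5676 5 of 9 passed as well, where 47.8% of all genes did, Hpgds being added (log2 -2.69, adjusted p = 0.00913).

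MM-401 and iBET, the inhibitors with the lower levels, differed in Tbxas1 with all 10 libraries (log2 0.85 higher with MM-401, SE 0.21, adjusted p = 0.0371), 1 member of 9 against 11.4% of all genes. That call was lost on leaving out any 1 inhibitor library (adjusted p between 0.0575 and 0.212). In the 8 libraries, 3 of 8 members were higher with MM-401 (25.2% of genes passed), Tbxas1 (log2 0.90, adjusted p = 0.0031), Alox5 (log2 1.60, adjusted p = 0.0191) and Alox5ap (log2 0.45, adjusted p = 0.0289).

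EPZ5676 and MI-2-2 differed least by count of genes called. No member passed the test between them with all 10 libraries, where 937 of all genes had an unadjusted p under 0.05 and 2 genes (0.0154%) passed. The log2 difference of EPZ5676 from MI-2-2 was 0.15 for Alox5ap (95% interval -0.26 to 0.56), -0.28 for Ptgs1 (-0.75 to 0.19) and 0.13 for Lta4h (-0.20 to 0.46). In that fit the intervals for Alox5 (-2.48 to 1.77), Ltc4s (-1.76 to 1.28) and Hpgds (-2.71 to 2.51) were too wide to place them. Each interval uses 1 spread per gene drawn from all 10 libraries, so the gap between the DMSO libraries enters it. For Alox5 the EPZ5676 libraries (614 and 534 CPM) lay below those of MI-2-2 (768 and 698 CPM), while DMSO held 141 and 9.44 CPM. Tbxas1 was 2.00-fold lower with EPZ5676 than with MI-2-2 (95% interval of the log2 difference -1.47 to -0.54, adjusted p = 0.246). It passed in the 8 libraries (adjusted p = 0.0237), where 0.982% of genes did, without DMSO replicate 1 (adjusted p = 0.0257), without DMSO replicate 2 (adjusted p = 0.0279) and with DESeq2 (adjusted p = 0.00351).

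The levels of the genes were also compared per kilobase of exon, with lengths from the GENCODE M21 annotation. By group mean in DMSO, Lta4h was the most abundant member, at 460.0 CPM per kilobase, followed by Alox5ap (143), Ptgs1 (98.1), Alox5 (26.7) and Tbxas1 (7.41), and the other 5 members were at or below 0.730. The place of Alox5 above Tbxas1 rests on DMSO replicate 1. In DMSO replicate 2 Alox5 was at 9.44 CPM and Tbxas1, of similar length, at 27.5 CPM. With EPZ5676 and MI-2-2, Alox5ap took the first place (632 and 568 CPM per kilobase), above Lta4h (551 and 504), and Alox5 (204 and 260) stood at about the level of Ptgs1 (205 and 249). With iBET the order of group means was that of DMSO, with Lta4h at 386, Ptgs1 at 195, Alox5ap at 167, Alox5 at 23.7 and Tbxas1 at 3.27, except that Ptgs1 and Alox5ap changed places.

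Promoter sequence was at hand for 8 of the 10 members in RefSeq (GRCm38.p6), all but Alox5ap and Alox15. The 250 bases before the annotated start are shown for Alox5 and Ltc4s, both highest with MI-2-2, then EPZ5676, then MM-401 by group mean, and for Tbxas1, which differed between MI-2-2, EPZ5676 and iBET. They were picked after the values were seen. Capitals mark matches, on either strand, to the GC box GGGCGG, to GAGGAA, a common flank of the ETS factor core, to the C/EBP-type TTNNGCAA, or to the TATA box TATAAA. The stretches lie at chr6:116461179-116461428 on the minus strand (Alox5), chr11:50238533-50238782 on the minus strand (Ltc4s) and chr6:38918736-38918985 on the plus strand (Tbxas1), each written 5′ to 3′ along the gene.
Alox5: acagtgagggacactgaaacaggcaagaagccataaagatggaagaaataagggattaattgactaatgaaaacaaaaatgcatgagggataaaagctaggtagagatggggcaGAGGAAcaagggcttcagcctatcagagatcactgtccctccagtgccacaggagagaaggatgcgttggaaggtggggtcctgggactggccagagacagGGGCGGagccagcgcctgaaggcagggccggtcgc
Ltc4s: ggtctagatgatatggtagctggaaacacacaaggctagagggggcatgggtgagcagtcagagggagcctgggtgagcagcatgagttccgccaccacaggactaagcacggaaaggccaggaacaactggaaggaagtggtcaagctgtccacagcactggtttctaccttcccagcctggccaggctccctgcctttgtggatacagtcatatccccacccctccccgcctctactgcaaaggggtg
Tbxas1: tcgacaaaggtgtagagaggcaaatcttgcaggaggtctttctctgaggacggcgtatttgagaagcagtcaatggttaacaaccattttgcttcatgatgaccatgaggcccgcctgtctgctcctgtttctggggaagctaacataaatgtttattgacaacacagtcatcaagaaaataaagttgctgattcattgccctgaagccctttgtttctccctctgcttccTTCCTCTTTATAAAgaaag
The Alox5 stretch held 1 GC box, 35 to 30 bases before the start, and 1 GAGGAA, 136 to 131 bases before it. Ltc4s held none of the 4 motifs. Tbxas1 held GAGGAA on the opposite strand, 19 to 14 bases before the start, and, overlapping each other, TATAAA on both strands between 13 and 6 bases before it. Of all 32851 promoter stretches of this length, 32.7% held GGGCGG, 23.3% GAGGAA, 9.56% TTNNGCAA and 12.4% TATAAA. Of the 8 members with a sequence, 3 held GGGCGG, 6 GAGGAA, 2 TTNNGCAA and 1 TATAAA. The matches are a description of the letters in these windows, and no binding was measured.

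Genes of other steps of eicosanoid metabolism were followed in a list of 87 genes, of which 61 could be tested. With EPZ5676, 24 were higher and 8 lower (52.5% of the list against 38.1% of all genes), with a median log2 fold change of 0.69 where that of all genes was -0.06. With MI-2-2, 28 were higher and 6 lower (55.7% against 41.4%), with medians of 0.97 and -0.05. With iBET, 6 were higher and 5 lower (18.0% against 13.9%), with medians of -0.23 and -0.04, and with MM-401 none passed, with medians of 0.16 and -0.01. Without DMSO replicate 2 the counts were 24 higher and 8 lower with EPZ5676, 28 and 4 with MI-2-2, 7 and 11 with iBET (29.5% of the list against 21.6% of all genes) and none with MM-401. Of the calls of named genes given next, that of Acsl3 with MI-2-2 was lost without DMSO replicate 2 (log2 -0.72, adjusted p = 0.0662), and the others held.

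Anxa1, which encodes the phospholipase-binding protein annexin A1, was listed in the group for arachidonic acid release and return to membranes. Release itself was not measured. Anxa1 rose with EPZ5676 from 21.2 and 17.5 CPM in DMSO to 648 and 1240 CPM (log2 5.61, adjusted p = 0.00032). With MI-2-2 it rose to 601 and 989 CPM (log2 5.36, adjusted p = 0.000316). It also rose with iBET (log2 1.75, adjusted p = 0.0201). Acsl3, an acyl-CoA synthetase, fell by 1.38 with EPZ5676 and by 1.19 with MI-2-2 on the log2 scale. Mgll, which encodes monoacylglycerol lipase, had the largest fall among called genes of the list with iBET, from 30.4 and 34.5 CPM to 5.92 and 2.33 CPM (log2 -2.99, adjusted p = 0.00433). It was higher with EPZ5676 (log2 2.23, adjusted p = 0.0022) and MI-2-2 (log2 1.96, adjusted p = 0.00318). In all, 11 of 19 genes of this group passed with EPZ5676 (57.9%, against 38.1% of all genes), 8 of them higher. MI-2-2 had 9 of 19 (47.4%, against 41.4% of all genes), 7 of them higher, and iBET 4 of 19 (21.1%, against 13.9%), 2 of them higher.

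The other lipoxygenase and leukotriene enzymes were called as higher only: 5 of 13 with EPZ5676 (38.5%, close to the 38.1% of all genes) and 9 of 13 with MI-2-2 (69.2%, against 41.4%). Cyp4f16, of a family of leukotriene hydroxylases, was higher with iBET (log2 0.97, adjusted p = 0.0366) and alike with MI-2-2 (log2 0.98, adjusted p = 0.0139). Ggt1, a gamma-glutamyl transferase that trims leukotriene C4, was lower with iBET (log2 -2.44, adjusted p = 0.0342) and higher with MI-2-2 (log2 2.90, adjusted p = 0.00335).

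Other prostaglandin enzymes passed in both directions. Hpgd, which encodes the dehydrogenase that inactivates prostaglandins, fell from 647 and 601 CPM in DMSO to 19.1 and 53.3 CPM with EPZ5676 (log2 -4.11, adjusted p = 0.00124) and to 39.4 and 74.4 CPM with MI-2-2 (log2 -3.45, adjusted p = 0.00184). Ptgr1, a prostaglandin reductase that also inactivates leukotriene B4, fell by 1.31 and 1.15 on the log2 scale. Akr1b8, an aldo-keto reductase, rose (log2 4.63 and 4.82) from 0.117 and 0.0959 CPM in DMSO. Ptges, the inducible prostaglandin E synthase, was lower with iBET (log2 -2.62, adjusted p = 0.0182) and higher with EPZ5676 (log2 1.65, adjusted p = 0.0251) and MI-2-2 (log2 2.11, adjusted p = 0.00913).

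Of the receptor and export genes, Fpr2, a formyl peptide receptor that also binds lipoxin and annexin peptides, had the largest called rise of the list, from 0.895 and 0.0959 CPM in DMSO to 28.1 and 65.5 CPM with EPZ5676 (log2 6.47, adjusted p = 0.001) and 81.2 and 159 CPM with MI-2-2 (log2 7.83, adjusted p = 0.000638), and without DMSO replicate 2 the log2 values were 5.72 and 7.09. Ltb4r1, the receptor of leukotriene B4, named here after its values were seen, was higher with EPZ5676 (log2 2.37, adjusted p = 0.00135) and MI-2-2 (log2 2.36, adjusted p = 0.00123) and lower with iBET (log2 -2.40, adjusted p = 0.00523). Lpcat1, which remakes platelet-activating factor, was higher with iBET (log2 1.00, adjusted p = 0.0157) and alike with MI-2-2 (log2 0.97, adjusted p = 0.0057). The smallest adjusted p with MM-401 was that of Mgst3, a microsomal glutathione transferase (log2 -1.10, adjusted p = 0.292), followed by Anxa1 (1.38), Fpr2 (2.84) and Lpcat1 (0.73), each with an adjusted p of 0.305.

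**Figure D3:**
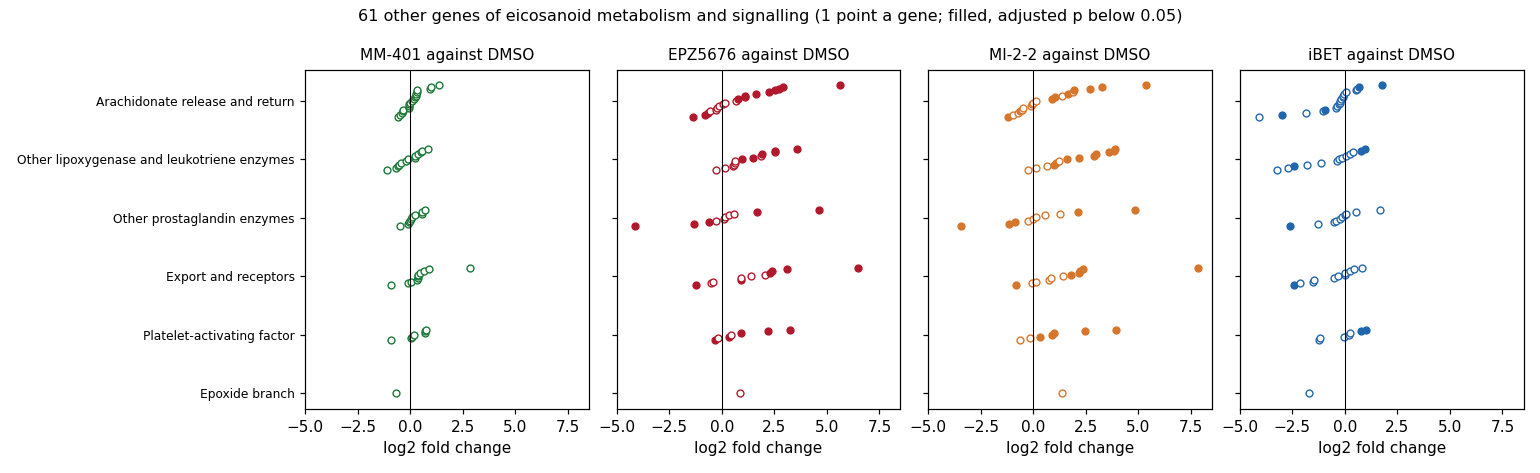
Log2 fold changes against DMSO of 61 other genes of eicosanoid metabolism and signalling, 1 point a gene, in 6 groups by role; filled points passed an adjusted p of 0.05. With EPZ5676 and MI-2-2 the filled points lie mostly to the right, 24 of 32 and 28 of 34, and those of iBET on both sides.

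Several of these genes are typical of mature myeloid cells, and markers of such cells moved with them. The summed level of the 10 of 11 listed neutrophil granule genes found in the table, led by S100a9 and S100a8, was 684 to 3679 CPM in DMSO, 4736 to 6190 with MM-401, 51480 to 69650 with EPZ5676, 46730 to 47620 with MI-2-2 and 521 to 1252 with iBET, and all 10 genes were higher with EPZ5676 and with MI-2-2. The sum of the 11 of 12 listed macrophage genes found, led by Cd68 and Mrc1, was 85.7 to 99.0 CPM in DMSO, 125 to 140 with MM-401, 388 to 504 with EPZ5676, 425 to 824 with MI-2-2 and 82.1 to 118 with iBET, and 10 of the 11 were higher with EPZ5676 and with MI-2-2. Their part in the changes of the eicosanoid genes was not tested, and in bulk RNA fewer cells of a type and less RNA per cell cannot be told apart.

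Markers of the cell types best known for leukotriene C4, prostaglandin D2 and thromboxane were also measured. Of 13 mast cell and basophil genes, 5 had no read in any library (Fcer1a, Prss34, Tpsb2, Tpsab1 and Cma1), and the sum, led by Hdc and Mcpt8, was 35.5 CPM in DMSO replicate 1, 133 CPM in DMSO replicate 2, 48.0 to 54.4 CPM with MM-401, 27.2 to 35.7 with EPZ5676, 23.7 to 24.4 with MI-2-2 and 23.4 to 24.8 with iBET. Hdc made up 118 CPM of the sum in DMSO replicate 2 and 14.05 CPM in DMSO replicate 1, whereas Ms4a2 was lower in replicate 2 (3.21 against 8.72 CPM), as was Gata2 (1.68 against 4.01 CPM), both named after their values were seen. Of the 4 such genes tested, none was higher with EPZ5676 or MI-2-2, and 2 and 3 were lower. The sum of 7 megakaryocyte and platelet genes, led by Vwf and Pf4, was 2.73 to 5.29 CPM in DMSO, 6.59 to 7.78 with MM-401, 34.3 to 48.3 with EPZ5676, 30.1 to 74.0 with MI-2-2 and 1.15 to 1.26 with iBET, with 4 of 6 tested genes higher with EPZ5676 and MI-2-2 and Gp6 at 0 in all libraries. Sums of eosinophil, erythroid and lymphoid genes were at most 8.33 CPM in any library. The 11 genes listed as markers of MLL-AF9 myeloid cells, led by Elane and Ctsg, were all detected. They summed to 11390 to 14420 CPM in DMSO, 12420 to 12900 with MM-401, 6831 to 7809 with EPZ5676, 7149 to 7185 with MI-2-2 and 7791 to 8928 with iBET, and 6 were lower and 4 higher with EPZ5676, 5 lower and 4 higher with MI-2-2, 2 lower and 1 higher after iBET, and none called with MM-401.

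**Figure D4:**
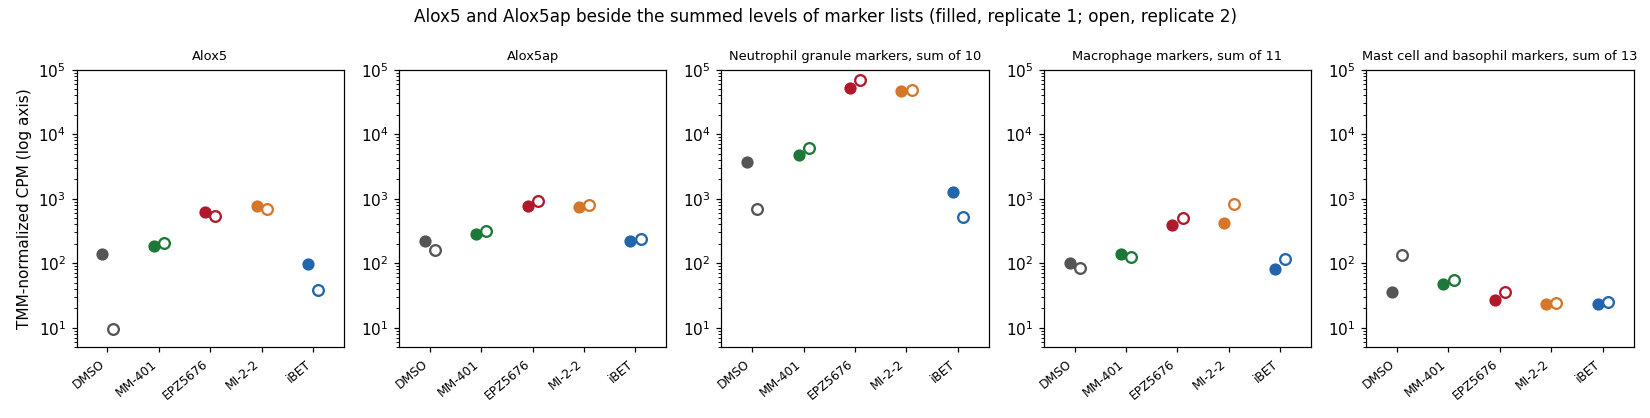
Alox5 and Alox5ap beside the summed levels of neutrophil granule, macrophage, and mast cell and basophil markers in each library, on the same log axis of TMM-normalized CPM. The neutrophil granule and macrophage sums are highest in the 4 libraries of EPZ5676 and MI-2-2, as are Alox5 and Alox5ap, and the mast cell and basophil sum is highest in DMSO replicate 2, where Hdc alone is 118 CPM.

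The genes most like each member over the 10 libraries were listed by Pearson's r of log2 CPM, as a description of libraries that share 5 treatments. Alox5 was followed most closely by Abcg3 (r = 0.989) and Svil (r = 0.985), Alox5ap by Pak1 and Adrbk1 (both r = 0.995), Ltc4s by Prickle3 (r = 0.986) and Dennd2a (r = 0.983), Tbxas1 by Gli1 (r = 0.969) and Ctse (r = 0.968), Ptgs1 by Irak4 and Kmt2c (both r = 0.964), Lta4h by Lama5 (r = 0.972) and Nccrp1 (r = 0.966), and Hpgds by Ap1m1 (r = 0.954) and Snx11 (r = 0.950). For the sparse Ptgs2 and Alox15 the nearest genes were Tfcp2l1 (r = 0.935) and Msantd1 (r = 0.934), at levels where a few reads set the value.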

How the data were processed

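The authors deposited raw counts of reads per gene for all 10 libraries in 1 table, with no normalization. The submitters' processing notes name the mm9 build, TopHat2, Subread and DESeq, without versions or roles, and how reads shared between related genes were handled is not given in the sources used here. Promoter sequences and exon lengths come from other builds (GRCm38), so no coordinate of the count table is given.

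Groups and replicate numbers were taken from the sample titles. Counts were analysed in R 4.3.3 with edgeR 4.0.16 (filterByExpr with a minimum count of 10, TMM, glmQLFit and glmQLFTest), in 1 fit of 10 libraries with 1 coefficient per treatment, and p-values were adjusted by Benjamini-Hochberg over all genes tested, with a threshold of 0.05. A standard error is the log2 fold change divided by the square root of F, and 95% intervals use the same F test. A fit without 1 library of a group assumes that the remaining library varies like those of the other groups. Limits for a count of 0 take 3 reads and cover counting error only. Alternatives were other scalings, no filter, DESeq2 1.42.0, each library left out, only the 2 groups compared, a 2-fold rule on mean CPM (0.1 CPM added, at least 1 CPM in either group), a replicate block and, added after the DMSO libraries had been compared, the 8 inhibitor libraries alone.

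Same-numbered libraries deviated together. The difference of replicate 1 from replicate 2 correlated across genes in all 10 pairs of groups (r = 0.278 to 0.666). This pairing was read from the data and not from a stated batch. The fit reported has no block, so its p-values, standard errors and intervals do not use the pairing. The block is an alternative. On simulated counts for EPZ5676 against DMSO (12971 genes), the fit recovered 77 of 100 genes changed 4-fold and 32 of 100 changed 2-fold. In it, 5 unchanged genes were called. The simulation changed far fewer genes than the 38.1% called with EPZ5676 in the data, so recovery in the data may differ.

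The 10 members and the lists were chosen with earlier results of these data known. Named genes were all members, the 3 called genes of the wider list with the largest rise and fall in each comparison with DMSO (with no call, the 2 with the smallest adjusted p), the 2 most abundant genes of a marker list with markers at 0 that a sentence needs, and the 2 genes most like each member by r.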

Additional observations from a re-analysis of the deposited data

How the results depend on the processing

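With only the 2 groups compared in a fit, the members called against DMSO fell to 1 (EPZ5676), 3 (MI-2-2) and 0 (iBET), where 9.34%, 9.12% and 0% of all genes passed, and those of the wider list to 13, 13 and 0, while the counts rose to 3 for MM-401 against iBET, 4 for MM-401 against EPZ5676, 5 for MM-401 against MI-2-2 and 5 for iBET against MI-2-2, where 35.0%, 45.6%, 51.4% and 49.2% of genes passed. DESeq2 called 2 members with MM-401 (2.26% of genes), 1 between EPZ5676 and MI-2-2 (1.24%), 6 between iBET and MI-2-2 (5395 of 13471 genes), and 5 wider genes with MM-401. The 2-fold rule gave 2 members and 3 wider genes with MM-401 (6.44% of genes), 1 member between EPZ5676 and MI-2-2 (3.37%), 2 between MM-401 and iBET (12.7%), 4 between MM-401 and EPZ5676 (23.6%), 6 between MM-401 and MI-2-2 (23.9%), and 6 between iBET and MI-2-2 (25.5%). Without both DMSO libraries the counts were 1 for EPZ5676 against MI-2-2, 3 for MM-401 against iBET, 4 and 5 for MM-401 against EPZ5676 and MI-2-2, and 5 for iBET against MI-2-2. With the replicate block, which pairs the libraries, 5 members in place of 3 passed between iBET and MI-2-2, and Hpgds was added between iBET and EPZ5676. It changed no other call of a member, while the share of all genes called against DMSO rose to 47.6% (EPZ5676), 50.6% (MI-2-2) and 23.8% (iBET).

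On leaving out 1 library, the members called against DMSO ran from 0 to 4 (MM-401), 2 to 5 (EPZ5676), 3 to 6 (MI-2-2) and 0 to 6 (iBET), and those of the wider list from 0 to 12, 19 to 42, 22 to 41 and 2 to 18. Between inhibitors they ran from 0 to 1 (EPZ5676 against MI-2-2), 0 to 3 (MM-401 against iBET), 1 to 4 (MM-401 against EPZ5676) and 2 to 5 (MM-401 against MI-2-2, iBET against EPZ5676 and iBET against MI-2-2). The share of all genes called against DMSO ran from 0% to 10.2% (MM-401) and 19.7% to 51% (EPZ5676). It ran from 20.7% to 53.9% with MI-2-2 and 1.12% to 27.9% with iBET. Each upper end was without DMSO replicate 1. Between inhibitors it ran from 0% to 0.838% (EPZ5676 against MI-2-2), 1.37% to 24.2% (MM-401 against iBET) and 11.6% to 47% (MM-401 against EPZ5676). It was 12.9% to 48.9% for MM-401 against MI-2-2, 16.8% to 50.6% for iBET against EPZ5676 and 15.6% to 50.8% against MI-2-2. Wide ranges are therefore not particular to the members or the wider list. Whether their counts moved more than the share of all genes was not tested.

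The log2 values that changed sign belonged to comparisons not called with all 10 libraries, and of the values after the change that of Alox5 with iBET without DMSO replicate 1 was called. Lta4h went to -0.021 with MI-2-2 under total-count scaling and -0.021 under the 2-fold rule, Ptgs2 to -0.13 with EPZ5676 under the replicate block, and Alox5 to 0.060 with iBET under the block. On leaving out 1 library, Lta4h ran from -0.13 to 0.11 with MM-401, Ptgs2 from -2.49 to 0.029 with MM-401, -0.81 to 0.89 with EPZ5676 and -2.61 to 0.38 with iBET, Alox5 from -1.08 to 2.83 with iBET, Ltc4s from -0.039 to 3.06 with iBET, and Alox15 from -6.05 to 3.15 with MM-401, -0.90 to 6.23 with EPZ5676, -2.85 to 4.78 with MI-2-2 and -6.03 to 3.12 with iBET. Total-count scaling moved the median of all genes to -0.23 with EPZ5676 and -0.20 with MI-2-2, from -0.06 and -0.05, and Alox5 (adjusted p = 0.0583) and Tbxas1 (adjusted p = 0.0597) were then not called with EPZ5676, nor Ptgs1 between MM-401 and MI-2-2 (adjusted p = 0.0889) and Lta4h between iBET and EPZ5676 (adjusted p = 0.09). The causes were not tested. Depth limits Alox15, Pla2g7, Ptgs2 and Ltc4s, and 2 libraries a group limit every p-value.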
